A study of Homo sapiens with 10 samples.

Results

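Retained intron transcripts were examined in HCT116 cells, an established human colorectal carcinoma line, as the transcripts whose deposited biotype is retained_intron and whose mean FPKM was at least 0.5 over the 4 libraries of a table. FPKM counts fragments for each kilobase of a transcript and is relative to the total of its library. In all, 14620 transcripts of 5654 genes met this rule in at least 1 of the 3 deposited tables, of 64673 transcripts of every biotype at that level, and 9651 met it in all 3 tables. The mean FPKM that chose them says nothing about which group is higher, so the comparisons between groups below use a quantity the rule did not set, apart from transcripts that reached the level through 1 group alone.

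The series holds 10 mRNA sequencing libraries (TruSeq mRNA kit, 150 ng of total RNA), 2 for each of 5 groups. In the inhibitor experiment, cells of control genotype received DMSO, the solvent, or EPZ-5676, an inhibitor of the histone H3 methyltransferase DOT1L, at 10 µM for 72 h (here EPZ). In the knockdown experiment all 3 lines carry an shRNA against CDK9 and received no treatment: EV, a name the labels do not expand, WT, with wild-type CDK9 put back, and K56A, with CDK9 whose lysine 56 is alanine put back. The labels do not say whether a line is 1 clone or a pool, or from which cultures the replicates came. The p-values therefore cover the spread between these libraries alone, which may be technical. The series title links both proteins to double-strand break repair, and no untransduced cells stand beside the 3 knockdown lines.

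A retained intron transcript is a processed RNA of a gene in which a stretch that other transcripts of the gene splice out is still present. Many such RNAs stay in the nucleus or are degraded when they reach the ribosome, so they usually give no protein, and retention tends to fall on short introns with high GC content. CDK9, as part of P-TEFb, phosphorylates paused RNA polymerase II and its regulators and so starts elongation, and DOT1L methylates histone H3 in the bodies of transcribed genes. Much of splicing takes place while the polymerase elongates.

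For each of 9 members 1 retained intron is printed here, because the results below return to these transcripts. Each printed intron lies in an exon of its transcript while at least 1 coding transcript of the same gene splices it out. Each intron is written 5′ to 3′ on the strand of its gene, and capitals mark the first 6 bases and the last 3 bases, where the spliceosome recognises the ends of an intron. Coordinates and sequences are those of GRCh38 with the GENCODE 29 gene models. All 9 printed introns begin with GT and end with AG, although none is removed from the transcript named.
KRT19-204, chr17:41523998-41524142, minus strand: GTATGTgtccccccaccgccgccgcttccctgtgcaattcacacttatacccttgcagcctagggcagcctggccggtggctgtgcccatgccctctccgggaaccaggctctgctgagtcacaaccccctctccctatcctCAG
FOSB-205, chr19:45470950-45471193, plus strand: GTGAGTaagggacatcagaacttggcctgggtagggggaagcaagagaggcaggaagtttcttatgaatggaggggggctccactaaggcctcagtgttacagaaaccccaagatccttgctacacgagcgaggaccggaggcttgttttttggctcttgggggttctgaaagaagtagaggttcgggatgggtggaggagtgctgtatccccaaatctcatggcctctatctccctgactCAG
ANKZF1-219, chr2:219235313-219235473, plus strand: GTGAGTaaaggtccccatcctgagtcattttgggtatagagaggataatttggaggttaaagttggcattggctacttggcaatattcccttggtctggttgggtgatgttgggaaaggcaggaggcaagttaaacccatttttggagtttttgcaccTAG
EIF2B5-203, chr3:184143143-184143441, plus strand: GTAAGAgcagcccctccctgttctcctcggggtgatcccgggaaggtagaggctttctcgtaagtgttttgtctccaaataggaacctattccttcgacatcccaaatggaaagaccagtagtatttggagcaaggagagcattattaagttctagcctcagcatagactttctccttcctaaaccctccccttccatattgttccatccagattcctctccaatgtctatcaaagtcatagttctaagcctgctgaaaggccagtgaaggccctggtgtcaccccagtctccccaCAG
EIF4A1-207, chr17:7577917-7578164, plus strand: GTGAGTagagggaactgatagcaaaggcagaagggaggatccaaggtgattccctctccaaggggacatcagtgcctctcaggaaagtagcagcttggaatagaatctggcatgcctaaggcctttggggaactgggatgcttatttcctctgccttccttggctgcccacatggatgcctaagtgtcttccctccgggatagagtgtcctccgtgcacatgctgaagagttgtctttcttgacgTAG
EIF1-202, chr17:41689942-41690087, plus strand: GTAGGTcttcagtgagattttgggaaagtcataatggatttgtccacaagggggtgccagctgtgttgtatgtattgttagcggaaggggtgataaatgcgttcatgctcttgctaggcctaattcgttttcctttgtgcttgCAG
ACTG1-214, chr17:81511109-81511187, minus strand: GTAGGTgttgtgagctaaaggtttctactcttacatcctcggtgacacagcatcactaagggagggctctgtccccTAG
HMGB2-205, chr4:173332996-173333068, minus strand: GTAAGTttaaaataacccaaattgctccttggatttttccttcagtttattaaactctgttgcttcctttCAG
MAT2A-205, chr2:85542374-85542564, plus strand: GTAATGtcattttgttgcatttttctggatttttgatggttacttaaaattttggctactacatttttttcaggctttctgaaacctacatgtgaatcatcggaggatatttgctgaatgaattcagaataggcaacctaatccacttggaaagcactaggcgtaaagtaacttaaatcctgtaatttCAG

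The intron of KRT19-204 has 145 bases and 63.4% GC, and the printed intron of HMGB2-205 has 73 bases and 32.9% GC. HMGB2-205 also keeps an intron of 582 bases, and EIF1-202 keeps others of 708 and 83 bases. ACTG1-214 keeps another of 150 bases, which does not have both GT and AG ends. The intron of EIF4A1-207 holds the snoRNA SNORA67, so here the retained sequence includes a second RNA gene. FOSB-205 is unspliced over its 2182 bases and keeps 2 introns, and exons of FOSB transcripts annotated as coding in GENCODE 29 cover all of it. MAT2A, which makes S-adenosylmethionine, and EIF1, a factor of start codon selection, are genes whose intron retention is well described.

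Most retained intron entries in these tables hold no whole intron of a coding transcript. Of the 13487 members in the WT table, 12477 (92.5%) matched a GENCODE 29 retained intron transcript by identifier, chromosome, start and end. Among these, 4688 (37.6%) held a whole intron of a coding transcript of the gene, 2903 of them exactly 1 and 1785 of them 2 or more, up to 14. Another 7537 held no whole intron but had an exon that overlaps an intron of some coding transcript, and 252 had neither. Such an overlap can be an end that runs into the intron or an exon that the coding transcript skips, and these were not separated. The inhibitor and K56A tables gave 38.8% and 37.4% with a whole intron. Matched members of the WT table had a median length of 820 bases. The median part of their bases outside every exon of a coding transcript of the gene was 36.7%. The other bases lie in exons of transcripts annotated as coding, which can themselves keep an intron, as for FOSB-205.

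The whole introns these transcripts keep were short, and the way they were counted favours short ones. An intron counts as retained only where it lies whole inside 1 exon of a member, and the median member has 820 bases. Introns held only in part are not in the retained set, and in the same genes they count among the others. How far this sets the contrast in length was not tested. In the WT table, 4926 introns of the main coding model of their genes were retained in a member, with a median length of 236 bases. The other 26755 introns of the same models had a median of 759 bases. Introns of at most 300 bases made up 59.1% of the retained and 30.9% of the others, with 58.7% and 33.0% in the inhibitor table. Of all 6998 retained introns, 97.2% had GT and AG ends, and their median GC content was 56.7%. The GC content of the other introns was not computed, so this value has no comparison. Retained introns lay more often toward the end of the gene: 8.54% of introns in the first 10% of the intron order were retained, 21.6% of those from 80% to 90% of it and 17.7% of those in the last 10%. A snoRNA lay inside 0.670% of the retained introns and 0.284% of the others. These are properties of the annotation as expressed in these cells, where a biotype was given by annotators and not by these data, and no test was run on them.

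**Figure D1:**
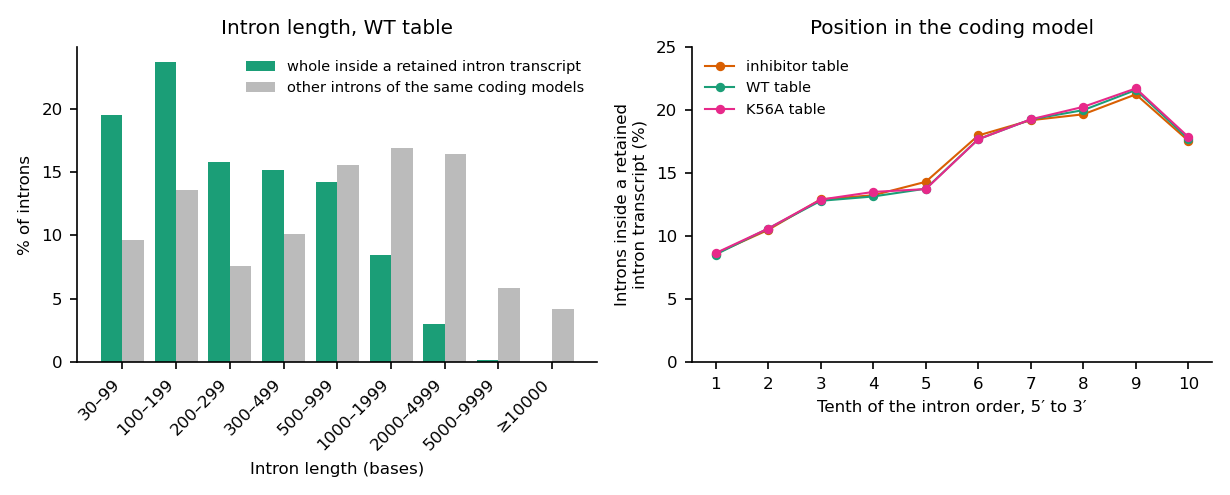
Left, the share of introns in each length class (bases) for introns of the main coding models that a retained intron member keeps and for the other introns of the same genes, in the WT table. Right, the percent of introns retained against the position of the intron in its gene, in steps of 10% from the 5′ end, for each of the 3 tables. Retained introns, counted only where whole inside an exon of a member, pile up below 300 bases. The retained share grows from 8.54% at the 5′ end to 21.6% at 80% to 90% of the order (WT table).

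Libraries of the inhibitor experiment listed 54216 to 59913 transcripts above 0, with DMSO replicate 1 lowest and the other 3 at 59403 or more. The knockdown libraries listed 68188 to 68816 in the WT table and 69796 to 71332 in the K56A table. Read counts are not in the tables, so the depth is unknown. Markers of colon epithelium stood above 1 FPKM in every library for 8 of 9 genes, with VIL1 not listed, while among 5 leukocyte markers only CD14 was listed, at no more than 0.390 FPKM. Of 5 fibroblast markers COL1A1 alone was listed, at 19.3 to 36.2 FPKM. The summed level of CDK9 was 16.4 and 19.4 FPKM in EV against 3060 and 2976 in WT, with 2609 and 2499 in K56A, and CDK9 has no entry of this biotype in any table. DOT1L stood at 10.4 to 12.6 FPKM in the inhibitor libraries and at 324 and 343 in EV, against 578 and 568 in WT, with 733 and 702 in K56A. The 1 retained intron transcript of DOT1L, DOT1L-206, stood at 0.376, 0.389, 0.294 and 0.322 FPKM in DMSO and EPZ, below the level rule, and at 1.08 and 0.652 in EV, against 0.878 and 1.17 in WT, with 1.302 and 1.15 in K56A. For DOT1L-206 the WT libraries overlapped those of EV and of K56A while K56A lay above EV, and for the sum of the gene no 2 lines overlapped. The labels name no DOT1L construct in these lines.

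Single retained intron transcripts were mostly low. Their median was 1.46 FPKM in the inhibitor table, 1.83 in the WT table and 1.85 in the K56A table, against 3.07, 2.696 and 2.69 for coding transcripts at the same level rule. Of those in the WT table, 947 reached 10 FPKM and 21 reached 100. The median member made up 4.93%, 6.48% and 6.41% of the summed FPKM of its gene, and 152, 200 and 191 members made up at least 50%. Genes with a single member numbered 2191 in the WT table and genes with 5 or more numbered 718. The gene with the most was ACADVL, a dehydrogenase of fatty acid oxidation, with 21. Members with under 10% of their bases outside coding exons had a median of 2.24 FPKM in the WT table, and those with 50% or more had 1.67. Reads from bases shared with the messenger have to be divided among transcripts by software, and the part of that division in these levels was not tested.

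Just inside the level rule stood ERBB2-208 and MOCS2-204 in the inhibitor table (0.5001 FPKM each), MTERF4-212 and CCNK-202 in the WT table, and SLC2A11-213 and TPM1-215 in the K56A table. Just outside stood PIGT-258 and ZZEF1-204, POLR1H-206 and CYB5R2-211, and HSF1-207 and TCF7-220, each within 0.001 FPKM of 0.5.

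The highest members include transcripts of translation genes. EEF1A1-207, from the gene of translation elongation factor 1 alpha, stood at 701 and 1186 FPKM in DMSO, against 1240.1 and 1414 in EPZ. In the knockdown lines it stood at 649 and 705 in EV, against 714 and 746 in WT, with 691 and 728 in K56A. DMSO replicate 1 was the lowest of the inhibitor libraries and the other 3 lay close together. RPL4-203, from a gene of the large ribosomal subunit, had a mean of 568 FPKM in the inhibitor table and 414 in the WT table, and only 8.7% of its bases lie outside coding exons. RPL14-208 made up 86.1% and 87.0% of the FPKM of RPL14 in EV and 88.4% and 87.4% in WT, with 1.6% of its bases outside coding exons. OAZ1-208, from the gene of ornithine decarboxylase antizyme, made up 52.1% to 62.1% of its gene in the inhibitor libraries and 50.8% to 54.8% in the knockdown libraries. The 10 highest members held 12.5% of all retained intron FPKM in the inhibitor table and 5.46% in the WT table.

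The retained intron transcript of an RNA helicase gene was a larger part of its gene in the knockdown experiment. DDX5-215, which keeps an intron of 1236 bases of DDX5, stood at 78.2 and 96.7 FPKM in DMSO, against 104 and 115 in EPZ, and at 208 and 201 in EV, against 216 and 224 in WT, with 228 and 229 in K56A. It made up 17.9% to 20.6% of DDX5 in the inhibitor libraries and 33.3% to 39.4% in the knockdown libraries. MAT2A-205, whose intron is printed above, stood at 13.7 and 16.7 in DMSO, against 12.5 and 15.8 in EPZ, and in the knockdown lines at 29.6 and 31.0 in EV, against 33.6 and 33.5 in WT, with 31.9 and 32.6 in K56A. Neither passed by limma between the groups of 1 experiment (adjusted p from 0.577 to 0.951). In the authors' deposited tables DDX5-215 had an adjusted p of 0.000265 for K56A versus EV and 0.253 for WT versus EV. It was not called there in EPZ versus DMSO, and MAT2A-205 was called in no comparison.

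Retained intron transcripts as a whole were also higher in the knockdown experiment, where they made up 13.3% to 13.8% of the FPKM outside the mitochondrial genome, against 7.44% to 7.94% in the inhibitor experiment. Over 4160 genes of at least 5 FPKM with such a transcript, the retained intron share of the gene was above all 4 inhibitor libraries in both EV libraries in 2561 (61.6%) and below all 4 in 130. The median share was 12.04% and 11.8% in DMSO, against 12.3% and 12.9% in EPZ, and it was 21.5% and 21.3% in EV and 21.9% and 21.3% in WT. Mitochondrially encoded RNA moved the same way, with 17.3% to 19.3% of all FPKM in the inhibitor libraries and 25.3% to 27.9% in the knockdown libraries. So did the nuclear RNA NEAT1, with 113 to 140.0 FPKM against 435 to 512. On the same list of nuclear RNAs, MALAT1, TUG1 and KCNQ1OT1 were also higher in the knockdown libraries. OIP5-AS1 was lower there (22.8 to 26.9 FPKM against 14.6 to 16.3), and NORAD and MIR17HG overlapped. The tables were normalised separately, and the knockdown and the experiment cannot be told apart, so no test was made, and the part of these other differences was not tested.

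**Figure D2:**
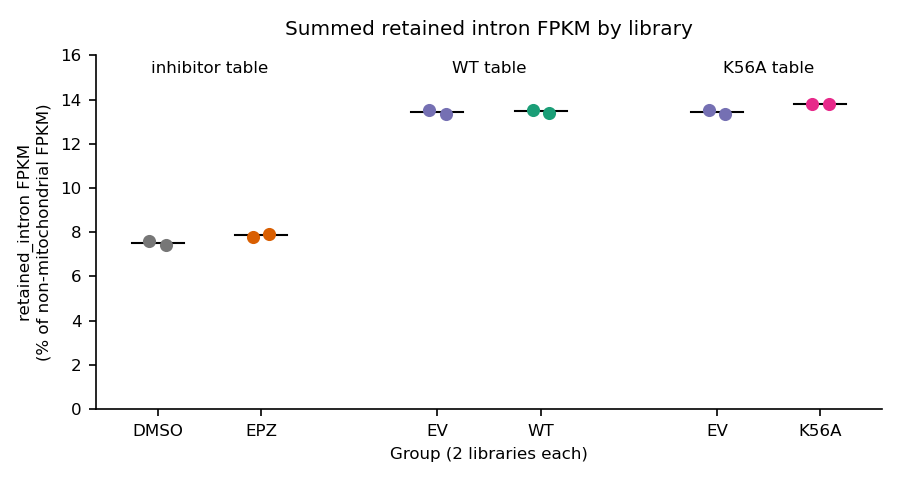
Summed retained intron FPKM as percent of the FPKM outside the mitochondrial genome, 1 point for each library, with the mean of each group as a line, in each of the 3 tables (EV stands in 2 of them). The inhibitor libraries sit between 7.44% and 7.94% and the knockdown libraries between 13.3% and 13.8%, while groups of 1 experiment differ by at most 0.346 percentage points.

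The first comparison asks whether inhibition of DOT1L for 72 h altered retained intron transcripts. None of the 10383 members passed in EPZ versus DMSO, by FPKM or by share of the gene (limma on log2 values, Benjamini-Hochberg adjusted over all transcripts, smallest adjusted p of a member 0.842 by FPKM and 0.718 by share). Over all 50910 transcripts tested the percent called was 0. In RNA from bulk cells, fewer cells with a transcript and less of it in each cell cannot be told apart. An unadjusted p under 0.05 was reached by 496 members by FPKM (4.78%, against 5.47% of all transcripts) and 369 by share (3.57%, against 5.47%). The groups did not overlap in 3623 members, 2121 higher in EPZ and 1502 lower, or 34.9%, against 35.6 percent of all transcripts called by that rule. The upward part was 20.4% of members against 18.4 percent of all transcripts, and the downward part 14.5% against 17.2 percent.

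The small upward lean was also seen in the sum. Retained intron transcripts made up 7.59% and 7.44% of non-mitochondrial FPKM in DMSO (7.52% ± 0.106, SD, n = 2) and 7.77% and 7.94% in EPZ (7.85% ± 0.122, SD, n = 2). The difference was 0.336 percentage points with p = 0.333 in a two-sided exact permutation test over libraries, the smallest p that 2 against 2 allows. The groups did not overlap. The coding part was 82.7% and 82.8% in DMSO, against 82.4% and 81.8% in EPZ. The median member was higher by 0.05 on the log2 scale, against 0.02 for all transcripts tested. Without DMSO replicate 2 these medians were 0.02 and 0.01.

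Single transcripts differed between DMSO replicates more than between the treatments. The median absolute log2 difference of a member was 0.498 between the DMSO replicates, 0.339 between the EPZ replicates and 0.406 between single libraries of the 2 groups. In WT versus EV it was 0.281 between the EV replicates, 0.256 between the WT replicates and 0.279 between the groups. Of the members, 23.2% differed by more than 1 on the log2 scale between the DMSO replicates and 9.33% between the EV replicates.

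**Figure D3:**
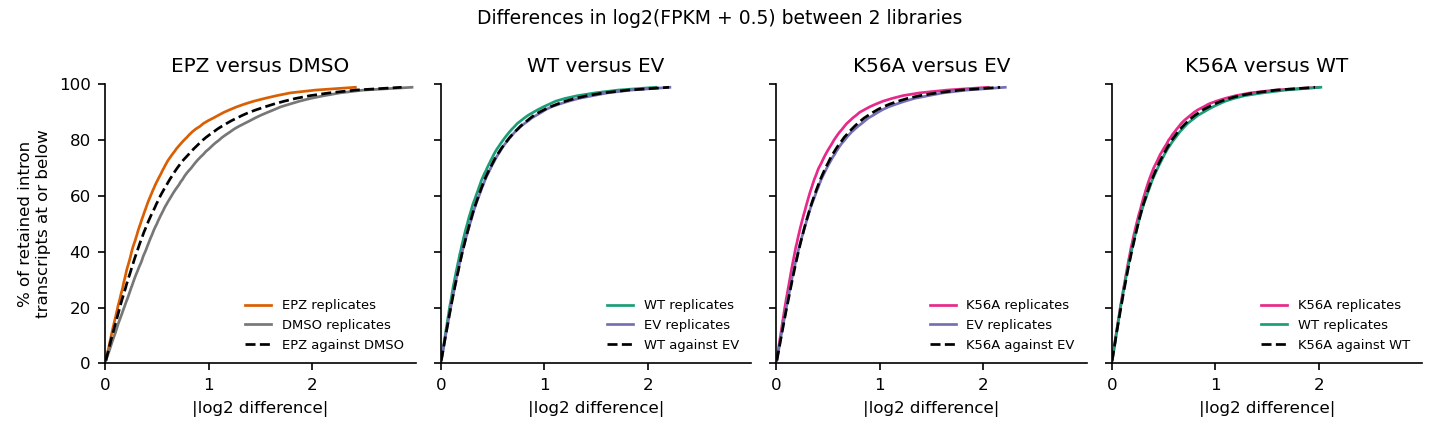
For each comparison, the cumulative percent of retained intron members (vertical axis) whose absolute difference in log2(FPKM + 0.5) between 2 libraries is at or below the value on the horizontal axis. Coloured lines compare the replicates of a group and the dashed line compares libraries of different groups: the dashed lines run close to or between the replicate lines, with medians of 0.406 for EPZ against DMSO and 0.279 for WT against EV.

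The members with the smallest p in EPZ versus DMSO were listed at 0 in at least 1 library of a group. AIFM1-222, of a mitochondrial flavoprotein gene, stood at 6.62 and 8.45 FPKM in DMSO, against 0 and 0.297 in EPZ. PSMA3-208, of a proteasome subunit gene, stood at 12.3 and 5.86 in DMSO with both EPZ libraries at 0, and LARGE2-207, of a glycosyltransferase gene, stood at 8.90 and 4.83 and was listed at 0 in both. In the other direction ACTR10-209, of a dynactin subunit gene, was listed at 0 in both DMSO libraries and stood at 4.93 and 3.63 in EPZ. TRAF7-207, of a ubiquitin ligase gene, was at 0 in both and at 4.08 and 4.25, and UQCRC2-209, of a subunit of respiratory complex III, at 0 in both and at 4.13 and 3.09. Each of these 6 had an adjusted p of 0.842 by limma. Since the level rule averages 4 libraries, each of the 6 reached it through 1 group, so these differences are not independent of that rule. None of the 5 with a matching gene model keeps a whole coding intron, and for PSMA3-208 the EV libraries alone gave 0 and 5.65, so that a value of 0 beside one of several FPKM also occurs within a group.

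PTCD3-214, of a mitochondrial translation factor gene, had values in every inhibitor library, with 1.67 and 1.37 FPKM in DMSO, against 7.09 and 9.17 in EPZ. The difference was 2.09 ± 0.26 (SE) on the log2 scale with an adjusted p of 0.842 by limma. Its share of the gene was 2.69% and 1.95% in DMSO, against 10.6% and 12.9% in EPZ. In EV the same transcript stood at 5.84 and 0. The authors' deposited table called 43 members in this comparison (adjusted p under 0.05; 18 higher and 25 lower), of which 37 were listed at 0 in 1 group. That is 0.414% of members, against 0.904 percent of all transcripts called in that table.

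No member of any gene list was called in EPZ versus DMSO, and each list is given by its median difference on the log2 scale with the range of that median when each library was left out in turn. For all members it was 0.05 (0.02 to 0.08). Of 70 members in 17 hnRNP genes, whose products bind nascent RNA, 55 were above 0, with a median of 0.28 (0.10 to 0.41). Of 70 members in 16 genes known for a regulated retained intron, 50 were above 0, with a median of 0.26 (0.09 to 0.37). Members in snoRNA host genes had a median of 0.21 (0.11 to 0.27, 49 of 76 above 0) and those in spliceosome genes 0.18 (0.08 to 0.21, 79 of 122 above 0). Members in genes of SR proteins and their kinases had a median of 0.06, which was 0.29 without EPZ replicate 1 and 0.02 without DMSO replicate 1 (33 of 58 above 0 with all libraries). The order of the lists moved with single libraries: without DMSO replicate 1 the hnRNP median was 0.10 and that of RNA export, decay and surveillance genes 0.21. DDX5-215 above was also lowest in DMSO replicate 1.

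Members in genes of RNA export, decay and surveillance had a median of 0.17 (0.16 to 0.31, 25 of 33 above 0), and those of p53 target genes 0.17 (0.14 to 0.19, 11 of 20). Members in P-TEFb, pausing and elongation genes had a median of 0.11 (0.08 to 0.16, 21 of 36 above 0), those of early response genes 0.06 (0.11 to 0.21 with 1 library left out, 9 of 16), and those of tRNA synthetase and amino acid supply genes 0.06 (0.02 to 0.19, 38 of 67). The medians of DOT1L partner, double-strand break repair and ribosomal protein genes changed sign with 1 library left out. Members of DOT1L partner genes had a median of 0.06 (7 of 12 above 0), which was -0.13 without DMSO replicate 2. In DNA double-strand break repair genes, the subject of the series, 23 of 49 members were above 0 with a median of -0.03, which was 0.03 without EPZ replicate 1. There, RPA1-206, of the gene of a subunit of the single-strand DNA binding protein RPA, stood at 23.8 and 22.7 FPKM in DMSO, against 14.2 and 16.8 in EPZ, and the groups did not overlap. The difference was -0.57 on the log2 scale with an adjusted p of 0.871 by limma. Members in cytosolic ribosomal protein genes had a median of 0.02 (100 of 193 above 0), which was -0.04 without EPZ replicate 2. The list of nuclear RNAs had 1 member, OIP5-AS1-204, at 0.475 and 0.776 FPKM in DMSO, against 1.21 and 1.74 in EPZ.

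**Figure D4:**
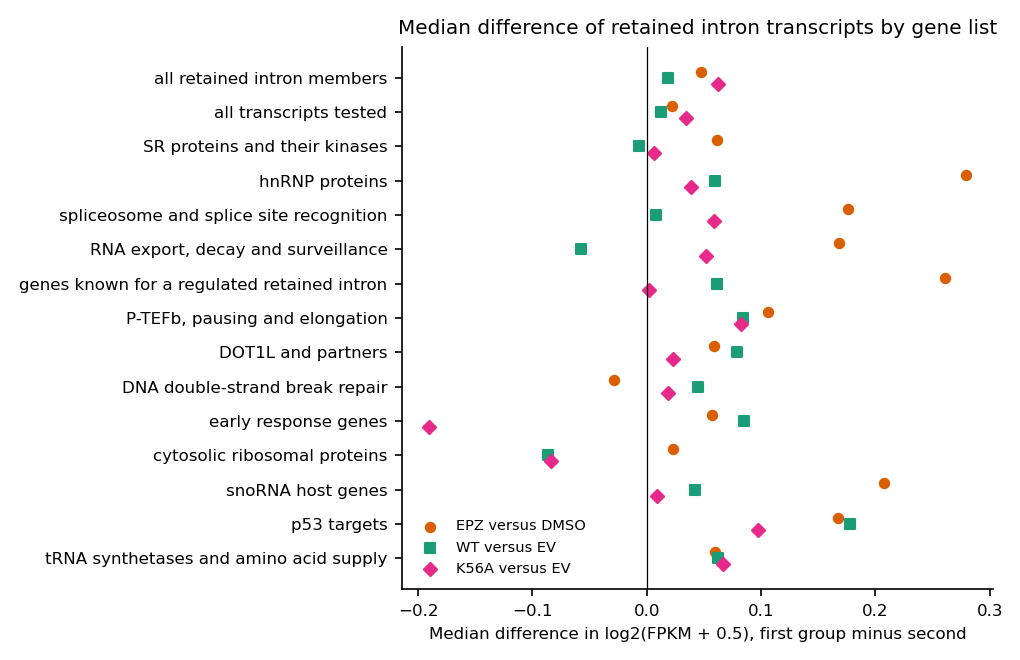
Median difference in log2(FPKM + 0.5) of the retained intron members of each gene list, first group minus second, for EPZ versus DMSO, WT versus EV and K56A versus EV, with all retained intron members and all transcripts tested at the top. The list of nuclear RNAs, with at most 2 members, is not drawn. The hnRNP list and the list of regulated retained introns lie farthest right for EPZ (0.28 and 0.26; 0.10 and 0.09 without DMSO replicate 1), ribosomal protein genes lie left of 0 for both knockdown comparisons (-0.09 and -0.08), and no member of any list passed the test.

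The next comparison asks what wild-type CDK9 put back into the knockdown line did. In WT versus EV, none of 13487 members passed by FPKM (smallest adjusted p of a member 0.529 by limma) or by share (0.591), while 0.00356 percent of all transcripts, 2 of 56245, were called by FPKM and 0 percent by share. An unadjusted p under 0.05 was reached by 797 members by FPKM (5.91%, against 6.69% of all transcripts) and 536 by share (3.99%, against 5.72%). The groups did not overlap in 4859 members (36.0%, against 36.0 percent of all transcripts), of which 2652 were higher in WT (19.7%, against 18.9 percent) and 2207 lower (16.4%, against 17.0 percent). Members thus sat at the background of all transcripts.

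The sums were the same within their spread. Retained intron transcripts made up 13.53% and 13.33% of non-mitochondrial FPKM in EV and 13.55% and 13.38% in WT, a difference of 0.0346 percentage points (two-sided exact permutation p = 0.667, smallest possible 0.333). The groups overlapped.

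In K56A versus EV, which asks the same of the mutant, none of 13592 members passed by FPKM (smallest adjusted p of a member 0.309 by limma) or by share (0.473). Over all 56706 transcripts, 0.00353 percent were called by FPKM and 0 percent by share. An unadjusted p under 0.05 was reached by 914 members by FPKM (6.72%, against 7.28% of all transcripts) and 562 by share (4.15%, against 5.93%). The groups did not overlap in 5193 members (38.2%, against 37.3 percent), 3293 higher in K56A (24.2%, against 21.6 percent) and 1900 lower (14.0%, against 15.7 percent). All transcripts leaned upward too. When each library was rescaled to a common median ratio, 2897 members were higher and 2162 lower (21.3% and 15.9%), against 18.7% and 18.3% of all transcripts, a difference in shares that was not tested.

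Retained intron transcripts made up 13.79% in both K56A libraries, against 13.55% and 13.35% in EV by the K56A table. The difference was 0.346 percentage points and the groups did not overlap (two-sided exact permutation p = 0.333, the smallest that 2 against 2 allows). Mitochondrially encoded RNA is left out of this percent. It was lower in K56A, with 25.3% and 25.4% of all FPKM against 27.9% and 27.5%, and whether the 2 differences are linked was not tested.

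KRT19-204, from the gene of a keratin of simple epithelium, had the smallest p of a higher member in K56A versus EV. It stood at 5.15 and 5.13 FPKM in EV, against 7.001 and 8.77 in WT, with 12.5 and 13.1 in K56A, so the 3 lines did not overlap. The difference between K56A and EV was 1.24 ± 0.10 (SE) on the log2 scale with an adjusted p of 0.309 by limma, and that between WT and EV was 0.57 ± 0.15 with an adjusted p of 0.673. The sum of KRT19 was 364 and 378 FPKM in EV, against 354 and 369 in WT, with 397 and 383 in K56A. The intron-holding share of the gene was thus 1.41% and 1.36% in EV, against 1.98% and 2.38% in WT, with 3.14% and 3.40% in K56A. In the authors' deposited table this transcript had an adjusted p of 2.05e-09 for K56A and 0.329 for WT.

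FOSB-205, from the gene of an AP-1 transcription factor subunit, had the smallest p of a lower member. It stood at 25.8 and 26.8 FPKM in EV, against 16.1 and 13.2 in WT, with 12.4 and 10.8 in K56A. The differences from EV were -0.83 ± 0.12 (SE) in WT and -1.15 ± 0.10 in K56A on the log2 scale, with adjusted p of 0.623 and 0.309 by limma. The whole gene was lower with it, at 112 and 109 FPKM in EV, against 78.2 and 81.0 in WT, with 62.0 and 60.2 in K56A. The share of the gene was 23.1% and 24.7% in EV, against 20.6% and 16.3% in WT, with 19.9% and 17.97% in K56A. Both the gene and the share of this transcript in it were thus lower than in EV in both lines.

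SLC38A5-211, from the gene of an amino acid transporter, stood at 3.25 and 3.83 FPKM in EV, against 7.81 and 8.09 in WT, with 9.98 and 11.9 in K56A. The difference from EV was 1.07 ± 0.14 (SE) in WT and 1.50 ± 0.16 in K56A on the log2 scale (adjusted p 0.623 and 0.350 by limma). Its share of the gene went with it, from 7.27% and 7.75% in EV to 17.3% and 17.5% in WT, with 19.1% and 23.8% in K56A. EIF2B5-203, which keeps an intron of 299 bases of the gene of an eIF2B subunit, stood at 2.25 and 1.92 in EV, against 7.98 and 4.20 in WT, with 5.49 and 6.51 in K56A. Its difference between K56A and EV was 1.33 ± 0.18 on the log2 scale with an adjusted p of 0.468 by limma. In both of these transcripts the EV libraries lay below all 4 libraries with CDK9 put back. BAX-211, from the gene of the apoptosis effector BAX, stood at 2.96 and 3.29 in EV, against 4.11 and 5.97 in WT, with 6.37 and 6.97 in K56A, the same order with a wider spread in WT. WT and K56A lay on the same side of EV in 17.4% of members (1403 higher and 909 lower of 13313). That compares with 16.7% of all transcripts, and both comparisons share the EV libraries.

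**Figure D5:**
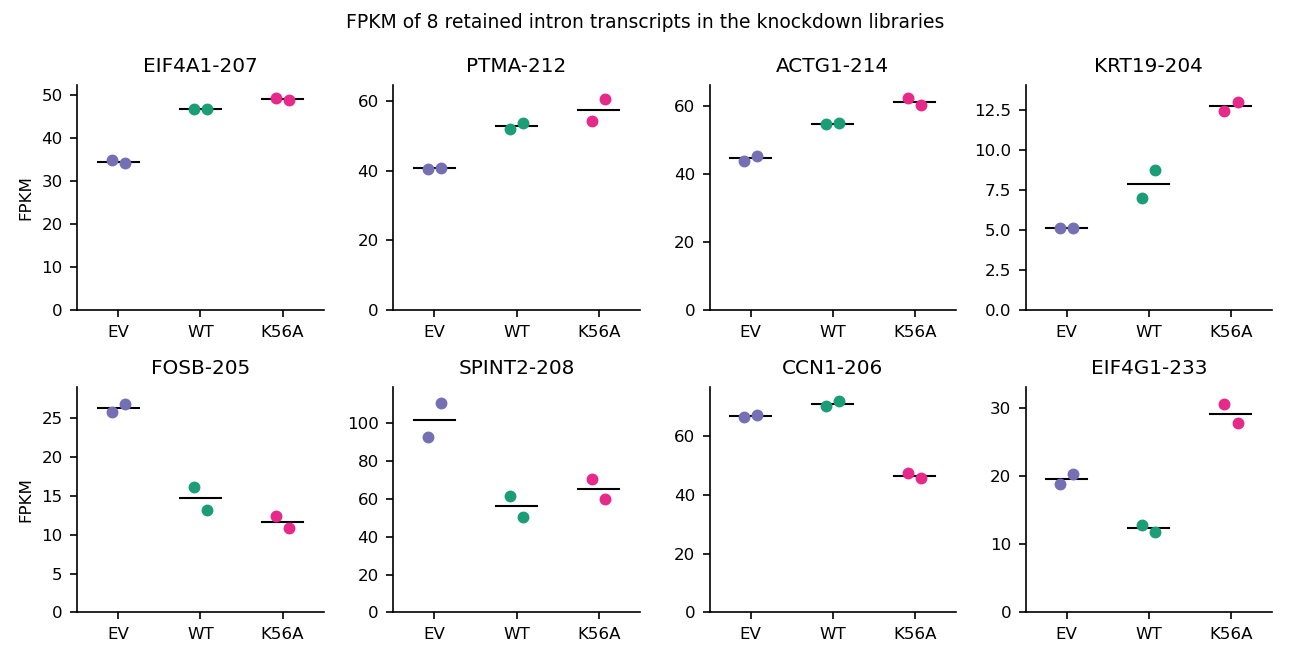
FPKM (vertical axis, from 0) of 8 retained intron transcripts in each knockdown library, grouped as EV, WT and K56A, with each point 1 library and the line the mean of 2. For KRT19-204 the points climb from 5.13 in EV to 13.1 in K56A and for FOSB-205 they descend from 26.8 to 10.8, while for CCN1-206 and EIF4G1-233 WT and K56A lie on opposite sides of EV.

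Abundant members with small replicate spread showed smaller differences. EIF4A1-207, whose intron with SNORA67 is printed above and whose gene encodes the RNA helicase of the cap-binding complex, stood at 34.8 and 34.2 FPKM in EV, against 46.7 and 46.7 in WT, with 49.2 and 48.7 in K56A. The differences were 0.43 ± 0.05 (SE) and 0.50 ± 0.05 on the log2 scale, with adjusted p of 0.623 and 0.380 by limma, and 2.14e-09 and 2.22e-13 in the authors' deposited table. Its share of EIF4A1 was 8.05% and 7.55% in EV, 10.7% in both WT libraries and 11.3% and 11.1% in K56A. PTMA-212, from the gene of the nuclear protein prothymosin alpha, stood at 40.5 and 40.8 in EV, against 52.0 and 53.7 in WT, with 54.2 and 60.6 in K56A. ACTG1-214, from the gene of gamma actin, stood at 43.8 and 45.4 in EV, against 54.7 and 54.9 in WT, with 62.3 and 60.2 in K56A. In each of the 3, all libraries with CDK9 put back were above both EV libraries. Over all transcripts that pattern held for 5158 of 55532, and over members for 1403 of 13313.

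Others were lower than EV in both lines. SPINT2-208, from the gene of a serine protease inhibitor, stood at 92.8 and 110.5 FPKM in EV, against 61.4 and 50.6 in WT, with 70.2 and 59.7 in K56A. EIF1-202 stood at 37.9 in both EV libraries, 29.4 and 30.8 in WT, with 32.9 and 32.1 in K56A, and HMGB2-205, from the gene of a chromatin protein, at 19.2 and 18.9, 16.2 and 14.9, and 16.5 and 15.9. SLC2A1-213, from the gene of a glucose transporter, stood at 54.8 and 57.6 in EV, against 45.7 and 48.1 in WT, with 41.4 and 43.8 in K56A. The WT and EV libraries did not overlap in any of these 4, nor did K56A and EV, and none passed by limma. WT and K56A on the same side of EV was about as frequent over all transcripts, at 16.7%, as over members, at 17.4%. These transcripts and EIF4A1-207, PTMA-212 and ACTG1-214 were picked from the authors' calls after their values were seen.

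The authors' deposited tables called more retained intron transcripts than limma on FPKM did. For WT versus EV they called 168 members, 92 higher and 76 lower (1.25%, against 2.58 percent of all transcripts), of which 54 were listed at 0 in 1 group. For K56A versus EV they called 219, with 128 higher and 91 lower (1.61%, against 3.17 percent), of which 40 were listed at 0 in 1 group. Both comparisons share the EV libraries. The share of members called and the share of all transcripts called were not tested against each other.

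Members listed at 0 in both libraries of a group were few, 79 in EPZ versus DMSO, 56 in WT versus EV and 41 in K56A versus EV. In WT versus EV they led the list by p. ANAPC5-217, of a subunit of the anaphase-promoting complex, was listed at 0 in both EV libraries and stood at 5.76 and 3.74 in WT, with 0.457 and 0.735 in K56A. PPP2R1A-208, of the scaffold subunit of protein phosphatase 2A, was at 0 in both EV libraries and at 3.54 and 3.56 in WT. NCK1-208, of an adaptor protein gene, stood at 1.81 and 1.94 in EV, was listed at 0 in both WT libraries and stood at 1.46 and 1.07 in K56A. DOK1-205, of a docking protein gene, stood at 2.60 and 2.77 in EV, at 0 in both WT libraries and at 0 and 1.49 in K56A. Since the level rule averages 4 libraries, each of these reached it through 1 group.

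The final comparison sets the mutant beside the wild type. In K56A versus WT, none of 13313 members passed by FPKM (smallest adjusted p of a member 0.188 by limma) and none of 12209 by share (0.982), with 0.00180 percent of all transcripts called by FPKM and 0 percent by share. An unadjusted p under 0.05 was reached by 693 members by FPKM (5.21%, against 6.04% of all transcripts) and 400 by share (3.28%, against 4.70%). The groups did not overlap in 4766 members (35.8%, against 36.7 percent), 2836 higher in K56A (21.3%, against 20.1 percent) and 1930 lower (14.5%, against 16.6 percent). The summed retained intron percent over the transcripts of both tables was 13.53% and 13.37% in WT and 13.75% in both K56A libraries, a difference of 0.304 percentage points (two-sided exact permutation p = 0.333, the smallest possible).

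EIF4G1-233 and CCN1-206 had the smallest p of the members here. EIF4G1-233, from the gene of the scaffold of the cap-binding complex, stood at 18.9 and 20.3 FPKM in EV, against 12.8 and 11.9 in WT, with 30.7 and 27.8 in K56A. The difference between K56A and WT was 1.21 ± 0.09 (SE) on the log2 scale with an adjusted p of 0.188 by limma. The share of EIF4G1 was 10.1% and 10.6% in EV, against 6.97% and 6.58% in WT, with 14.3% and 13.3% in K56A, while the whole gene stood at 181 to 191 FPKM in EV and WT and 214 and 210 in K56A. Only 1.2% of the bases of this transcript lie outside coding exons, and it keeps no whole intron.

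CCN1-206, from the gene of a secreted matricellular protein of the early response, stood at 66.4 and 67.3 FPKM in EV, against 70.1 and 71.8 in WT, with 47.3 and 45.8 in K56A. The difference between K56A and WT was -0.60 ± 0.04 (SE) on the log2 scale with an adjusted p of 0.188 by limma. CCN1-203, another retained intron transcript of the gene, stood at 66.9 and 67.2 in EV, against 76.2 and 71.4 in WT, with 55.0 and 59.6 in K56A. CCN1-206 made up 38.0% and 38.4% of the gene in EV and 32.3% and 33.2% in K56A. The sum of the gene was 175 FPKM in both EV libraries, 183 and 184 in WT, with 147 and 138 in K56A.

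In the gene lists, no member was called in the knockdown comparisons. Members in cytosolic ribosomal protein genes had a median of -0.09 on the log2 scale in WT versus EV (64 of 199 above 0) and -0.08 in K56A versus EV (76 of 203 above 0), against 0.02 and 0.06 for all members. Leaving out each library gave -0.11 to -0.06 and -0.12 to -0.08. Their part of the FPKM of those genes was 10.9% and 10.5% in EV, against 10.1% and 10.0% in WT, with 10.1% and 9.99% in K56A. Members in early response genes had a median of 0.08 in WT versus EV (11 of 15 above 0), -0.19 in K56A versus EV (6 of 16) and -0.25 in K56A versus WT (4 of 15), with the CCN1 and FOSB transcripts among them. Members in p53 target genes had medians of 0.18 (17 of 23 above 0) and 0.10 (17 of 26). Without EV replicate 1 the p53 median in WT versus EV was 0.06, and that in K56A versus EV was 0.05 without K56A replicate 2 and 0.19 without EV replicate 2. The early response medians ranged from 0.02 without WT replicate 2 to 0.10 in WT versus EV, from -0.25 to -0.12 in K56A versus EV and from -0.30 to -0.15 in K56A versus WT. Of the 13 lists with more than 2 members, the median kept its sign with each library left out in 5 in WT versus EV, 7 in K56A versus EV and 2 in K56A versus WT.

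The medians of the splicing machinery genes lay near the median of all members. In WT versus EV the medians were -0.01 for SR proteins and their kinases, 0.06 for hnRNP proteins, 0.01 for spliceosome genes and 0.06 for genes known for a regulated retained intron. In K56A versus EV they were 0.01, 0.04, 0.06 and 0.00. Without EV replicate 2 the hnRNP median in WT versus EV was -0.04 and the SR median in K56A versus EV -0.11. The members of the last list held 54.7% and 52.0% of the FPKM of their genes in EV, against 54.7% and 54.8% in WT, with 54.1% and 54.4% in K56A. SRRM2-218, from the gene of a large splicing factor of nuclear speckles, stood at 51.7 and 51.0 FPKM in EV, against 50.9 and 50.02 in WT, with 59.9 and 52.96 in K56A. EIF4A2-219 keeps 7 introns, of which 5 hold a small RNA gene, and stood at 64.2 and 59.6 in EV, against 59.9 and 61.4 in WT, with 59.3 and 61.4 in K56A, so the groups overlapped.

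Members in P-TEFb, pausing and elongation genes had a median of 0.08 in both knockdown comparisons (30 of 52 and 27 of 51 above 0). Without EV replicate 1 these medians were -0.016 and -0.0042, so their sign rests on that library. SUPT5H-218, of the gene of the elongation factor SPT5, stood at 16.6 and 13.7 FPKM in EV, against 12.3 and 14.0 in WT, with 13.6 and 13.7 in K56A. SUPT16H-207, of the gene of a subunit of the histone chaperone FACT, stood at 13.4 and 14.1 in EV, against 12.5 and 11.5 in WT, with 14.1 and 15.97 in K56A. Members in DNA double-strand break repair genes had medians of 0.04 (39 of 74 above 0) and 0.02 (42 of 74). The first was -0.03 without WT replicate 1. PAXX-208, of the gene of an end-joining factor, stood at 40.4 and 44.0 in EV, against 39.0 and 39.6 in WT, with 45.4 and 48.5 in K56A, with an adjusted p of 0.746 for K56A versus WT by limma. Members in tRNA synthetase and amino acid supply genes had medians of 0.06 and 0.07 (0.03 and 0.01 without EV replicate 1), among them SLC3A2-224 of an amino acid transporter heavy chain at 11.3 and 8.35 in EV, against 17.3 and 18.6 in WT, with 17.96 and 19.0 in K56A. In RNA export, decay and surveillance genes the medians were -0.06 and 0.05, in snoRNA host genes 0.04 and 0.01, and in DOT1L partner genes 0.08 and 0.02. With 1 library left out these ranged from -0.06 to 0.02 and -0.04 to 0.08, from -0.09 to 0.08 and -0.01 to 0.04, and from 0.01 to 0.06 and -0.03 to 0.06.

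Summing all retained intron transcripts of a gene changed none of these counts. No gene was called in any comparison, over 4630 genes in EPZ versus DMSO, 5367 in WT versus EV, 5402 in K56A versus EV and 4763 in K56A versus WT (limma, smallest adjusted p 0.591, 0.446, 0.245 and 0.0901). An unadjusted p under 0.05 was reached by 254, 367, 443 and 317 genes.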

How the data were processed

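The authors deposited 3 tables of FPKM per transcript for 4 libraries each: DMSO with EPZ, EV with WT, and EV with K56A. The submitters' processing notes name genome build GRCh38 and, without roles, DESeq2 1.32.0, RSEM 1.3.3, STAR 2.7.1a and Trim Galore 0.6.6. Neither the annotation release nor the strand setting is stated there. Reads of antisense partners, and of near-identical copies such as pseudogenes of ribosomal protein genes and of EEF1A1, may therefore be divided between entries. The authors' own statistics in the tables (log2 fold change, p-value, adjusted p-value) are labelled EdgeR for the inhibitor and DESeq2 for the knockdown per the file headers, and served only to give the authors' calls. A further 4 columns of the inhibitor table, on the spread within DMSO and EPZ, were not used. Only transcripts above 0 in at least 2 of the 4 libraries are listed, and no counts are, so the depth is unknown.

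Transcripts of all biotypes with a mean of at least 0.5 FPKM were tested with limma 3.58.1 in R 4.3.3 on log2(FPKM + 0.5) (trend, group means, two-sided, Benjamini-Hochberg at 0.05 over all of them), and differences on this scale understate those of low transcripts. The share of a gene was tested as the log2 ratio of a transcript to the rest of its gene, each plus 0.5, in genes with at least 2 transcripts and a mean of 1 FPKM. The share is printed as percent of the summed FPKM of the gene. EV values differ between the knockdown tables by a constant factor (1.0007 and 1.00062). For K56A versus WT the K56A table was multiplied by the mean, 1.00066, and the 69086 transcripts of both tables were used, the share test leaving out genes with over 5% of their FPKM in transcripts of 1 table. The fits were tested on simulated data. Introns were taken from GENCODE 29, counting stretches of at least 30 bases that a coding transcript splices out. Summaries and plots used Python 3.11.15, pandas 2.3.3, numpy 2.4.6, scipy 1.17.1 and matplotlib 3.10.9.

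Transcripts are named by rule: the 3 smallest p in each direction of each test where none passed, among those with a mean of at least 2 FPKM and groups that do not overlap (for the share, a mean share of 5% to 95%), the 8 highest of each table, the 2 highest of each of 14 gene lists, those of CDK9 and DOT1L, and the 2 on either side of the level rule. MAT2A-205, the introns of EIF4A1, EIF1, ACTG1, HMGB2 and MAT2A, and other members with a mean of at least 10 FPKM called in both knockdown tables by the authors were chosen after their values were seen. Not every transcript that the rule names is described, and some are not reported here. The members and lists were chosen with earlier results of these data known. Alternatives were another pseudocount, level rule, scaling, test, library left out and replicate block, and, added after seeing the data, retained intron FPKM summed per gene and list medians without each library.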

Additional observations from a re-analysis of the deposited data

Results flagged for a closer look

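For 12 named retained intron transcripts, all WT libraries lay on one side of EV and all K56A libraries on the other. Of the members tested 2.19% had this pattern, against 2.35% of all transcripts, so members were not above the background. The difference between K56A and WT was tested by limma in the 6 knockdown libraries, and it passed for none of them (adjusted p from 0.188 to 0.841). In the authors' deposited tables EIF4G1-233 was called lower in WT (adjusted p 1.46e-05) and higher in K56A (0.000106) than in EV. Of 45 members called in both tables, 1 had opposite directions. CCN1-206, CCN1-203 and EIF1-205 were called in K56A versus EV alone, and the rest of the 12 in neither. Both comparisons share the EV libraries.

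In most of these transcripts WT was lower than EV and K56A higher, by differences of K56A minus WT on the log2 scale as follows. EIF4G1-233 differed by 1.21 and SSBP4-207, of a gene of a single-stranded DNA binding protein family, by 1.58. SSBP4-207 stood at 3.304 and 3.36 FPKM in EV, against 2.14 and 1.16 in WT, with 5.37 and 6.14 in K56A. NTAQ1-205 differed by 1.06, with 3.23 and 3.54 in EV, against 2.04 and 2.01 in WT, with 5.83 and 3.86 in K56A. CIRBP-220, of the gene of a cold-inducible RNA-binding protein, differed by 0.49, with 22.1 and 22.2 in EV, against 17.9 and 18.2 in WT, with 24.9 and 26.3 in K56A. PAXX-208 differed by 0.25 and RPL13-213, of a ribosomal protein gene, by 0.38. RPL13-213 stood at 149 and 154 in EV, against 144 and 136 in WT, with 207 and 159 in K56A, so its K56A libraries differed from each other by more than the lines did. SRRM2-218 differed by 0.16, the smallest of this direction.

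In the others WT was higher than EV and K56A lower. ANKZF1-219, whose intron of 161 bases is printed in the report and whose gene serves ribosome quality control, differed by -1.02, with 4.22 and 4.51 FPKM in EV, against 5.47 and 6.22 in WT, with 2.55 and 2.69 in K56A. INCENP-203, of the gene of a chromosomal passenger complex subunit, differed by -0.96, with 2.19 and 2.36 in EV, against 2.93 and 2.82 in WT, with 1.07 and 1.42 in K56A. CCN1-206 differed by -0.60 and CCN1-203 by -0.36. EIF1-205 differed by -0.21, with 95.7 in both EV libraries, 97.6 and 98.4 in WT, with 82.0 and 86.9 in K56A.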

How the results depend on the processing

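Under every alternative run, 0 members were called by limma in each comparison, by FPKM and by share (110 settings), and all 581 alternative values of the 48 named transcript results kept their direction and stayed short of the threshold. The smallest adjusted p of a single member by FPKM ranged over the alternatives from 0.301 to 1.00 for EPZ versus DMSO, 0.192 to 0.960 for WT versus EV, 0.144 to 0.993 for K56A versus EV and 0.102 to 1 for K56A versus WT. The labels number replicates 1 and 2 in each group without saying that a number is shared. Same-numbered libraries deviated together by r = 0.063, 0.009, 0.012 and 0.007 across transcripts, and the fit with the replicate block also called 0.

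The summed retained intron percent depended on its denominator. The mitochondrial part, which the first denominator below adds, was 17.3% and 17.6% of all FPKM in DMSO, against 18.4% and 19.3% in EPZ. It was 27.9% and 27.5% in EV, against 25.3% and 25.4% in K56A. The cause of the differences between groups was not tested. As percent of all FPKM, mitochondrial included, the difference was 0.165 points for EPZ versus DMSO, 0.568 for K56A versus EV and 0.490 for K56A versus WT. As percent of the FPKM of the host genes it was 0.584 for EPZ, 0.182 for WT versus EV and 0.516 for K56A versus EV. Leaving out 1 library gave 0.250 to 0.422 for EPZ versus DMSO, -0.0625 to 0.132 for WT versus EV, 0.245 to 0.446 for K56A versus EV and 0.225 to 0.382 for K56A versus WT. WT versus EV changed sign without WT replicate 1 (-0.0457) and without EV replicate 2 (-0.0625). Rescaling to a common median ratio moved the higher part of members whose groups do not overlap from 63.4% to 57.3% in K56A versus EV (57.9% to 50.5% for all transcripts) and from 59.5% to 55.1% in K56A versus WT (54.9% to 50.1%). With 2 libraries a group, only differences far above the spread between replicates can pass.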

Other observations

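Further retained intron transcripts were named for the smallest p of their share of the gene, and none passed by limma. BECN1-204, of an autophagy gene, stood at 3.47 and 4.21 FPKM in EV, against 1.55 and 1.73 in WT, with 1.58 and 2.11 in K56A. DBF4-205, of the gene of the activator of the replication kinase CDC7, stood at 3.84 and 4.81 in EV, against 2.07 and 1.79 in WT, with 3.76 and 3.95 in K56A, so WT lay below EV while K56A overlapped it. GTF2H3-204, of a TFIIH subunit gene, also had its lowest libraries in WT, with 4.25 and 5.62 in EV, against 1.38 and 1.57 in WT, with 3.63 and 3.06 in K56A. STARD10-217, of a lipid transfer protein gene, stood at 1.59 and 2.07 in EV, against 4.63 and 5.29 in WT, with 2.86 and 3.23 in K56A. TMEM63B-206, of a membrane channel gene, stood at 0.886 and 0.996 in EV, against 1.61 and 1.28 in WT, with 3.56 and 3.40 in K56A.

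CLU-213, of the gene of the secreted chaperone clusterin, stood at 14.7 and 11.7 FPKM in EV, against 6.38 and 14.7 in WT, with 0.992 and 1.77 in K56A. Its difference between K56A and EV was -2.88 ± 0.26 (SE) on the log2 scale, with an adjusted p of 0.316 by limma and of 4.32e-12 in the authors' deposited table. It made up 3.38% and 2.62% of CLU in EV and 0.235% and 0.446% in K56A, while the gene stood at 434 and 446 FPKM in EV and 421 and 398 in K56A. LAMB1-209, of a laminin chain gene, stood at 8.48 and 8.43 in EV, against 12.6 and 11.7 in WT, with 11.8 and 12.7 in K56A.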
